A study of Mus musculus with 8 samples.

Results

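The early response of bone marrow mesenchymal stem cells to scaffold extracts made with S7 was described for the 10160 genes that were counted at 5 CPM or more (counts scaled to the library total) in both day 3 libraries of a side. One side holds the 2 extract arms with S7 and the other the 2 arms without it. These members were taken from 26873 features in the deposited table, of which 22050 carry rat Ensembl gene IDs. Of the members, 9614 reached the minimum on both sides, 287 only in the arms with S7 and 259 only in the arms without it. Just inside the minimum lay Tmtc2, with 2.76 CPM in PCL-S, 2.85 in PCL-SE, 5.01 in PCL-O and 5.27 in PCL-E. Just outside lay Dtd2, with 5.05 CPM in PCL-S, 4.99 in PCL-SE, 4.32 in PCL-O and 4.87 in PCL-E. Every member also passed the count filter of the test, and 11890 rat IDs and 448 unnamed features over the minimum were not members.

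The 4 extracts of polycaprolactone (PCL), a degradable polyester used for tissue scaffolds, were given to wild-type bone marrow mesenchymal stem cells, which the labels call a cell line, under osteogenic differentiation. PCL-S carries S7, PCL-SE carries S7 and E7, PCL-E carries E7, and PCL-O was read as the blank by elimination. Both are called peptides in the title, and the sources used here give neither their sequence nor their amount. All arms share the basal medium (DMEM with 10% serum), soaked with scaffold for 72 h at 37 °C at 1.25 cm2 per ml, so the cells met what the scaffold released and not the scaffold itself. Libraries were sequenced on day 3 and day 7, 1 per arm and day. The labels state 3 RNA samples, whereas the table has 1 column per arm and day. The labels name Mus musculus and mm10, but the gene IDs are rat, so the species is uncertain and symbols follow the rat IDs.

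Mesenchymal stem cells of the marrow can form bone, cartilage, fat and contractile stromal cells, and osteogenic media usually hold the glucocorticoid dexamethasone. Glucocorticoids enter the cell and bind the glucocorticoid receptor, which moves to the nucleus and raises a well-known set of genes such as Fkbp5, Tsc22d3 and Sgk1. Stem cells of this kind also secrete and crosslink much of their surrounding matrix, above all fibrillar collagens, fibronectin and basement membrane proteins, and they read its stiffness through integrins, actin fibres and the cofactors YAP and TAZ. The sources used here do not state the osteogenic supplements.

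Total counts on day 3 ran from 34059858 in PCL-SE to 40983073 in PCL-S, members held 97.5% to 97.6% of them, and 3 counts correspond to 0.0732 to 0.0881 CPM (counting error only). Libraries of the same side were the most alike: a chi-square per degree of freedom over members was 8.24 for PCL-SE and PCL-S and 19.7 for PCL-E and PCL-O, against 256 for PCL-S and PCL-O, 222 for PCL-SE and PCL-O, 181 for PCL-S and PCL-E and 154 for PCL-SE and PCL-E. No pair agreed within counting noise, so none was treated as 1 library deposited in duplicate. A ratio of 2 or more was found for 16 members between PCL-SE and PCL-S and for 42 between PCL-E and PCL-O. Across sides it was found for 653 members between PCL-S and PCL-O and for 467 between PCL-SE and PCL-E. The 2 libraries of a side differ in E7, so SDs and p-values measure how alike those arms are, not the spread between cultures, and an exact two-sided permutation test of 2 against 2 cannot go below p = 0.333. Of 12 stromal markers matched 9 were members, and of the 11 tested 4 were higher and 3 lower with S7 (without PCL-S 2 and 0, without PCL-SE 2 and 1, with all 8 libraries 3 and 1). At 2-fold or more, 1 stromal marker was higher and 1 lower. Thy1 had 838 CPM in PCL-S, 857 in PCL-SE, 558 in PCL-O and 706 in PCL-E. Cd44 stood at 281 ± 7.02 CPM with S7 and 267 ± 11.1 without it (SD, n = 2). Summed markers of macrophages were 0.537 CPM in PCL-S, 0.881 in PCL-SE, 0.869 in PCL-O and 0.922 in PCL-E, with Adgre1, Tyrobp, C1qa and Cd163 at 0 in all 4 day 3 libraries. Erythroid markers summed to 0.415 CPM in PCL-S, 0.440 in PCL-SE, 0.666 in PCL-O and 0.749 in PCL-E, and neural and glial markers to 24.5 CPM in PCL-S, 21.8 in PCL-SE, 16.1 in PCL-O and 17.8 in PCL-E. In bulk RNA, fewer cells of a type and less RNA per cell cannot be told apart.

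The arms with S7 were compared with the arms without it over all features in 1 edgeR quasi-likelihood fit of the 4 day 3 libraries, with calls at a Benjamini-Hochberg adjusted p under 0.05. Of the 10160 members, 2019 were higher and 1864 lower with S7, and 6277 were not called. Over all 15244 features tested, 15.9% were called higher and 16.0% lower (31.9% either way). Most changes were small: the median size among called members was 0.44 on the log2 scale. At 2-fold or more, 276 members were higher and 285 lower, against 3.63% and 4.65% of all features tested (8.28% either way). The CPM of the sides did not overlap for 7455 members, against 68.7% of all features tested. At 4-fold or more there were 70 and 67, and at 8-fold or more 25 and 22. Of the 2-fold changes, 207 of the 276 rises and 215 of the 285 falls were 2-fold in each pair taken alone, PCL-S over PCL-O and PCL-SE over PCL-E (0.5 CPM added). The same 4 libraries set the fold by which these members were picked, so the counts of pairs are a description. Of the 9614 members over the minimum on both sides, 163 were 2-fold higher and 186 lower. Without PCL-S there were 1028 higher and 943 lower members, and without PCL-SE 1022 and 937. With 1 S7 library left, the spread in those fits comes from PCL-O and PCL-E alone, the less alike pair. Whether this lowered the counts was not tested. A fit of all 8 libraries with day, its interaction with S7 and E7 as terms called 956 and 841.

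**Figure D1:**
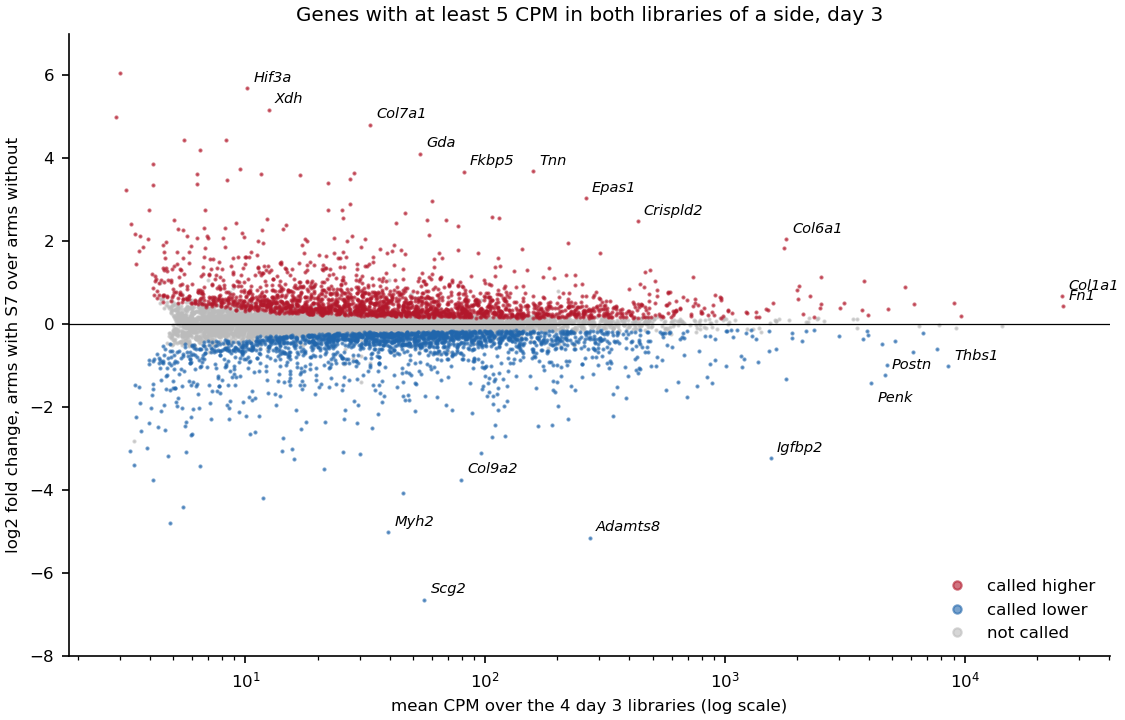
Each point is a member, with its mean CPM over the 4 day 3 libraries on a log scale (x axis) and its log2 fold change, arms with S7 over arms without (y axis); red points were called higher, blue lower, and grey were not called. The 2019 higher and 1864 lower members spread over the whole range of levels, and 1 member lies off the top.

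The genes with the largest rises included enzymes, extracellular proteins and regulators, several of them near 0 without S7. Of the 15 largest rises, 13 reached the minimum of 5 CPM only with S7, and of the 15 largest falls 11 only without it, so for these a difference was fixed by the choice of members and their values are a description. Hif3a, a relative of the oxygen-sensing HIF factors that can restrain them, had 21.1 CPM in PCL-S, 18.9 in PCL-SE, 0.0579 in PCL-O and 0.720 in PCL-E (log2 fold change 5.68 ± 0.46 (SE), adjusted p = 0.000438). Xdh, the xanthine dehydrogenase that makes uric acid, had 23.6 CPM in PCL-S, 25.0 in PCL-SE, 0.174 in PCL-O and 1.18 in PCL-E (5.17 ± 0.42, adjusted p = 0.00044). In both genes the sides were far apart, and PCL-E lay above PCL-O.

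Gda, guanine deaminase, stands a step before Xdh in purine breakdown and averaged 101 ± 1.31 CPM with S7 and 5.90 ± 4.29 without it (SD, n = 2; 4.11 ± 0.38, adjusted p = 0.000654). Fkbp5, a co-chaperone that lowers the hormone affinity of the glucocorticoid receptor, had 151 CPM in PCL-S, 151 in PCL-SE, 7.48 in PCL-O and 16.4 in PCL-E (3.68 ± 0.29, adjusted p = 0.000416). Tnn, a tenascin of the bone and tooth matrix, had 304 CPM in PCL-S, 284 in PCL-SE, 19.6 in PCL-O and 26.3 in PCL-E (3.69 ± 0.13, adjusted p = 6.86e-05). PCL-S and PCL-SE were nearly level for these 3 genes and lay above both other arms. Col7a1, the collagen of anchoring fibrils, averaged 63.9 ± 2.89 CPM with S7 and 2.30 ± 0.584 without it (SD, n = 2; 4.81 ± 0.13, adjusted p = 3.60e-05). Hs3st1, which adds 3-O-sulfate to heparan sulfate, averaged 5.91 ± 0.658 CPM with S7 and 0.0865 ± 0.0814 without it (6.04 ± 0.41), and Timp4, an inhibitor of matrix metalloproteinases, 5.60 ± 0.494 CPM with S7 and 0.173 ± 0.0811 without it (5.00 ± 0.31). As in every gene taken from the 15, the choice fixed that the sides do not overlap.

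Hopx, a homeodomain protein that does not bind DNA, averaged 12.2 ± 1.01 CPM with S7 and 0.663 ± 0.692 without it (4.21 ± 0.51). Hspb7, a small heat shock protein of heart and muscle, averaged 52.4 ± 2.65 CPM with S7 and 4.20 ± 2.25 without it (3.65 ± 0.27). Both lay under 6 CPM in PCL-O and PCL-E. Further genes among the 15 largest rises were Lbp, the lipopolysaccharide-binding protein (4.43), Rapgef5, an exchange factor for Rap (4.43), the sodium-proton exchanger Slc9a3 (3.86) and the dipeptidase Dpep1 (3.73). Lbp had 0 CPM in PCL-O and 0.980 in PCL-E, and it was not called by DESeq2 (adjusted p = 0.212).

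**Figure D2:**
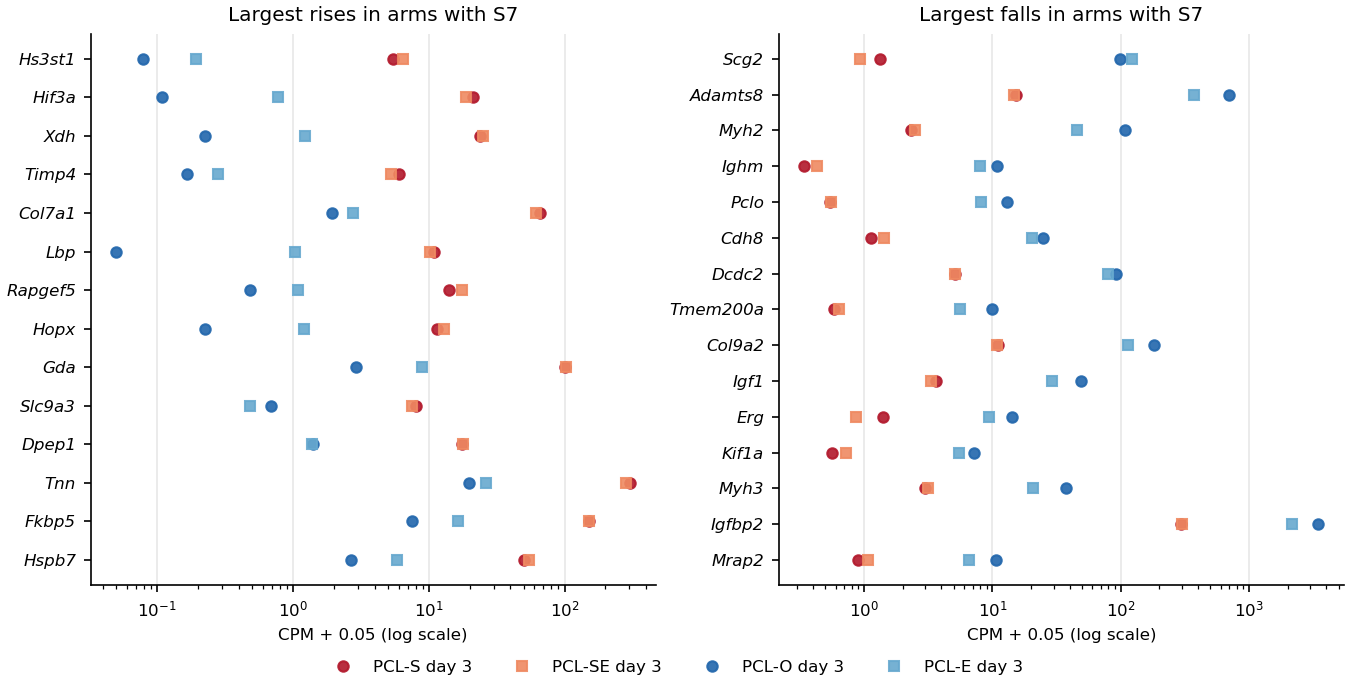
CPM with 0.05 added (x axis, log scale) in PCL-S, PCL-SE, PCL-O and PCL-E on day 3 for 14 of the 15 members with the largest rise (left) and the 15 with the largest fall (right), 1 point per library. In every row the red and orange points of the arms with S7 lie on one side of the blue points, as the choice of genes requires.

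Among the genes that fell most were signalling, muscle, cartilage and neuronal genes. Scg2, a granin of secretory granules, had 1.27 CPM in PCL-S, 0.881 in PCL-SE, 97.8 in PCL-O and 123 in PCL-E (log2 fold change -6.64 ± 0.18 (SE), adjusted p = 3.52e-05). Adamts8, a secreted metalloproteinase, had 15.1 CPM in PCL-S, 14.7 in PCL-SE, 696 in PCL-O and 369 in PCL-E (-5.15 ± 0.32, adjusted p = 0.000222). Igfbp2, which binds insulin-like growth factors, had 295 CPM in PCL-S, 298 in PCL-SE, 3447 in PCL-O and 2164 in PCL-E (-3.23 ± 0.21, adjusted p = 0.000254). The arms with S7 agreed closely for these genes, whereas PCL-O and PCL-E stood well apart for Adamts8 and Igfbp2. Igf1, its ligand, averaged 3.45 ± 0.228 CPM with S7 and 39.0 ± 13.7 without it (SD, n = 2; -3.48 ± 0.27, adjusted p = 0.00038). Col9a2, a collagen of cartilage, averaged 10.9 ± 0.0482 CPM with S7 and 148 ± 49.3 without it (-3.75 ± 0.24, adjusted p = 0.00023). Dcdc2, a doublecortin-domain protein of cilia, averaged 5.04 ± 0.0214 CPM with S7 and 85.8 ± 9.15 without it (-4.08 ± 0.11, adjusted p = 3.52e-05).

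Skeletal muscle myosins were in the same group. Myh2, a fast myosin heavy chain, had 2.27 CPM in PCL-S, 2.44 in PCL-SE, 107 in PCL-O and 45.8 in PCL-E (-5.02 ± 0.47), and Myh3, the embryonic myosin, 2.95 CPM in PCL-S, 3.08 in PCL-SE, 37.1 in PCL-O and 20.7 in PCL-E (-3.25 ± 0.30). The table names Myh2 by a second column as Myh1, another fast myosin, so which of them it counts is uncertain. In both genes PCL-O held more than PCL-E. Cdh8, a neural cadherin, averaged 1.23 ± 0.217 CPM with S7 and 22.5 ± 3.29 without it (-4.20 ± 0.18), and Pclo, a scaffold of the presynaptic zone, 0.494 ± 0.00786 CPM with S7 and 10.5 ± 3.37 without it (-4.40 ± 0.31). The neuronal motor Kif1a (-3.39), Mrap2, an accessory protein of melanocortin receptors (-3.18), Erg (-3.41), Tmem200a (-3.76) and Ighm (-4.79) completed the 15. Other features of the table carry the names Tmem200a and Ighm too, so reads may be split between copies and both values are uncertain. Erg is an ETS factor of endothelium and cartilage, and it fell while Tek and Flt1, receptors found in endothelium, were higher (1.19 and 0.35); Flt1 was not called without PCL-S, without PCL-SE or with all 8 libraries (adjusted p = 0.115, 0.142 and 0.628). Endothelial markers summed to 47.2 CPM in PCL-S, 49.4 in PCL-SE, 43.6 in PCL-O and 44.2 in PCL-E, with Cdh5, Emcn, Tie1 and Cldn5 at 0 in all 4 libraries. The part of other cells in these values was not tested.

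Genes that glucocorticoids are known to induce were mostly higher. Of 27 listed genes tested, 20 were higher and 2 lower with S7 (without PCL-S 17 and 1, without PCL-SE 19 and 1, without PCL-O 21 and 1, with all 8 libraries 16 and 1), with a median log2 fold change of 1.34, against 0.0023 over all features tested. Here and for the lists that follow, brackets give the higher and lower counts under each left-out library, and in the fit of all 8 libraries, where these move either count by over 1.5 times. List counts are to be read beside the 15.9% called higher and 16.0% called lower among all features tested. The lists were chosen with earlier results of these data known, so their counts and medians are a description. At 2-fold or more, 15 of the 27 were higher. Beside Hif3a and Fkbp5, the largest were Zbtb16, a zinc finger repressor that marks steroid treatment in stromal cells, at 21.4 ± 0.159 CPM with S7 and 1.76 ± 0.375 without it (SD, n = 2; 3.61 ± 0.15, adjusted p = 0.000101), and the sulfotransferase Sult1a1 (3.60 ± 0.10). Sgk1, a kinase that controls ion transport, had 113 CPM in PCL-S, 145 in PCL-SE, 24.7 in PCL-O and 25.2 in PCL-E (2.38 ± 0.12, adjusted p = 0.000135). Crispld2, a secreted glucocorticoid-responsive protein, had 736 CPM in PCL-S, 729 in PCL-SE, 89.9 in PCL-O and 175 in PCL-E (2.48 ± 0.27). In each of these genes both S7 arms lay at least 4-fold above both other arms.

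Glul, glutamine synthetase, averaged 351 ± 15.9 CPM with S7 and 91.3 ± 8.64 without it (SD, n = 2; 1.96 ± 0.07). Errfi1, a feedback inhibitor of the EGF receptor, averaged 182 ± 24.8 CPM with S7 and 30.6 ± 6.40 without it (2.58 ± 0.15). The anti-inflammatory leucine zipper gene Tsc22d3, which has a near-identical copy and is uncertain, averaged 265 ± 4.38 CPM with S7 and 104 ± 5.14 without it (1.36 ± 0.05). Smaller rises were found for the transcription factors Klf15 (1.34), Klf9 (0.97) and Cebpd (1.08), and the metallothionein Mt2A rose by more (3.38). Gadd45b, a stress sensor, averaged 51.1 ± 0.0776 CPM with S7 and 144 ± 22.6 without it (-1.48 ± 0.11). Angptl4, the other lower gene and a lipase inhibitor, stayed below 2 CPM in all 4 libraries (-1.71). It was not called with all 8 libraries (adjusted p = 0.644) or without PCL-O, PCL-S or PCL-SE (adjusted p = 0.0839, 0.0525 and 0.141).

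The letters AGAACA and TGTTCT spaced by any 3 bases, a full palindrome of the glucocorticoid receptor's DNA element, were searched on both strands in the 250 bases before each gene start in RefSeq's mouse promoters (GRCm38.p6). They are mouse sequences matched by symbol, whereas the gene IDs are rat. Of 13236 tested genes with a symbol, 9301 matched, and 1 of them held the element, which was Sgk1. Among all 27025 promoters 3 held it (0.0111%). The stretch of Sgk1 is shown because it is the single match; capitals mark the element. It lies on the plus strand at chr10:21993651-21993770 and begins 239 bases before the gene start.
Sgk1: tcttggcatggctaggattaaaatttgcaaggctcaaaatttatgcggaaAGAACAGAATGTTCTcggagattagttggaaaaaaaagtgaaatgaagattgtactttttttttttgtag
A match of letters is a description, and the other induced genes were not examined outside this window.

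Purine breakdown stood out through few genes rather than as a whole. Of 14 listed genes tested, 5 were higher and 1 lower (without PCL-S 5 and 0, without PCL-SE 4 and 0, without PCL-E 7 and 3, with all 8 libraries 4 and 0), with a median of 0.19. Beside Xdh and Gda, Nt5e, the surface enzyme CD73 that makes adenosine and marks mesenchymal stem cells, had 17.4 CPM in PCL-S, 16.6 in PCL-SE, 4.23 in PCL-O and 6.48 in PCL-E (1.68 ± 0.18, adjusted p = 0.00111). In all 3 the S7 arms were above the others. Of 6 genes of tetrahydrobiopterin, the cofactor of nitric oxide synthases, 4 were higher and 0 lower (without PCL-S 2 and 0, without PCL-SE 1 and 0, with all 8 libraries 2 and 0), led by the recycling enzyme Pcbd1 (1.46 ± 0.18).

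The gains with the most CPM were all in extracellular matrix. Of 26 listed genes of fibrillar collagens and their partners, 17 were higher and 7 lower (with all 8 libraries 9 and 4), with a median of 0.41. Col1a1, the main chain of bone collagen, had 32384 CPM in PCL-S, 29957 in PCL-SE, 18908 in PCL-O and 20401 in PCL-E (log2 fold change 0.68 ± 0.05 (SE), adjusted p = 0.000396). Fn1, fibronectin, had 30249.6 CPM in PCL-S, 28618 in PCL-SE, 22134 in PCL-O and 21629 in PCL-E (0.44 ± 0.04, adjusted p = 0.000835). Col6a1, a chain of the beaded filaments around cells, had 2982 CPM in PCL-S, 2791 in PCL-SE, 616 in PCL-O and 791 in PCL-E (2.05 ± 0.11, adjusted p = 0.000151). The step was thus small in Col1a1 and Fn1 and about 4-fold in Col6a1, with each S7 arm above both others in all 3 genes.

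Its partner Col6a2 averaged 2762 ± 106 CPM with S7 and 783 ± 125 without it (SD, n = 2; 1.83 ± 0.10), and Col5a1, which sets fibril width, 3443 ± 248 CPM with S7 and 1587 ± 85.2 without it (1.13 ± 0.06). Col1a2 averaged 10614 ± 708 CPM with S7 and 7500.2 ± 155 without it (0.51 ± 0.05) and the fibril-bound Col12a1 7281 ± 462 CPM with S7 and 3955 ± 436 without it (0.89 ± 0.09). In the fit of all 8 libraries the calls of Col1a1, Fn1, Col12a1 and Col1a2 were lost (adjusted p = 0.0666, 0.0722, 0.0802 and 0.109). Fbln1, a fibulin, had a log2 fold change of 1.42. Not all matrix genes went this way. Postn, periostin, had 2815 CPM in PCL-S, 2721 in PCL-SE, 7639 in PCL-O and 5456 in PCL-E (-1.23 ± 0.15, adjusted p = 0.00162). Fbln5, which helps elastic fibres assemble, averaged 401 ± 9.63 CPM with S7 and 1133 ± 193 without it (-1.49 ± 0.12), and Eln, elastin itself, 667 ± 49.7 CPM with S7 and 1349 ± 225 without it (adjusted p = 0.0011). Tnc, the tenascin of healing and embryonic tissue, averaged 861 ± 9.69 CPM with S7 and 1545 ± 322 without it (-0.83 ± 0.13), so Tnn and Tnc moved in opposite directions.

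**Figure D3:**
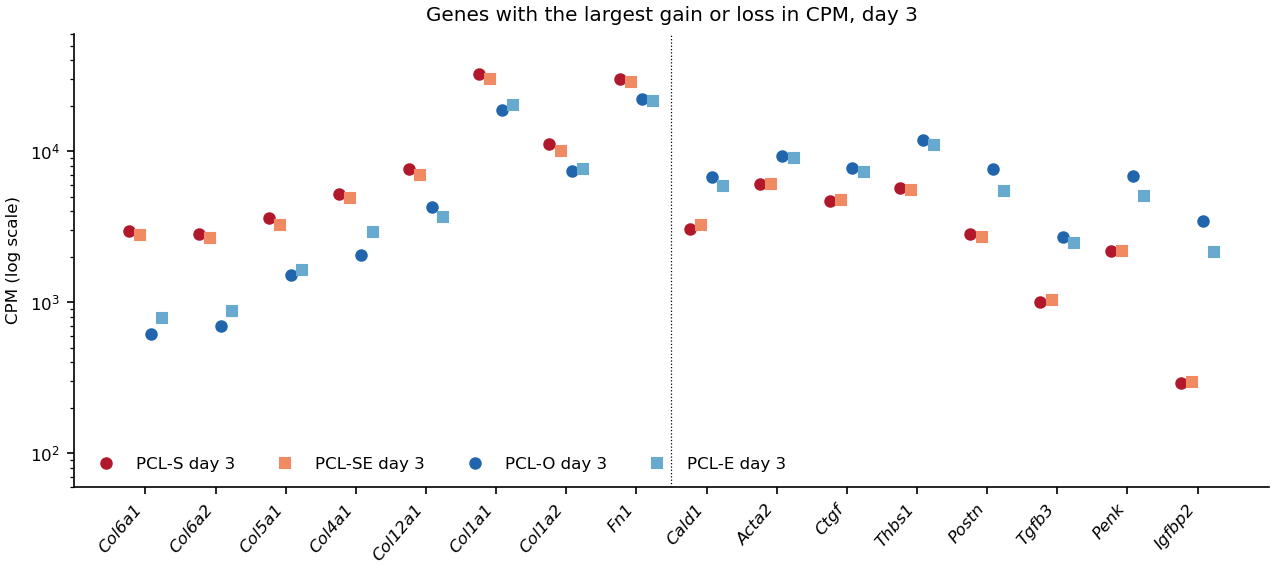
CPM on a log scale (y axis) in the 4 day 3 libraries for the 8 members with the largest gain (left of the dotted line) and the 8 with the largest loss in mean CPM (right), 1 point per library. The points of PCL-S and PCL-SE lie above those of PCL-O and PCL-E in the 8 genes on the left and below them in the 8 on the right.

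Basement membrane genes were split in a similar way. Of 24 tested, 11 were higher and 7 lower (with all 8 libraries 7 and 4), with a median of 0.40. Col4a1, a chain of the network collagen, had 5233 CPM in PCL-S, 4926 in PCL-SE, 2067 in PCL-O and 2929 in PCL-E (1.04 ± 0.14, adjusted p = 0.00259). Lama2, a laminin chain of muscle and stroma, had 201 CPM in PCL-S, 188 in PCL-SE, 24.0 in PCL-O and 43.2 in PCL-E (2.55 ± 0.24), and Col18a1, the source of endostatin, averaged 116 ± 5.44 CPM with S7 and 20.7 ± 3.03 without it (2.50 ± 0.10). Both were clearly higher in the S7 arms. Against these, Fras1 averaged 27.8 ± 2.07 CPM with S7 and 186 ± 36.0 without it (-2.73 ± 0.14) and Frem1 1.18 ± 0.222 CPM with S7 and 10.2 ± 3.49 without it (-3.08 ± 0.30), and these 2 are partners in the complex that ties epidermis to dermis. Hmcn1, hemicentin, averaged 49.5 ± 0.651 CPM with S7 and 166 ± 32.1 without it (-1.73 ± 0.13).

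Enzymes of collagen folding and crosslinking were moderately changed, with 11 of 21 higher and 5 lower (without PCL-S 5 and 4, without PCL-SE 7 and 4, with all 8 libraries 4 and 3). The prolyl hydroxylase subunit P4ha2 averaged 330.4 ± 0.365 CPM with S7 and 146 ± 11.7 without it (1.19 ± 0.06), while its relative P4ha3 averaged 198 ± 0.588 CPM with S7 and 393 ± 44.8 without it (-0.98 ± 0.08). Plod2, which hydroxylates lysines for stable crosslinks, had 761 CPM in PCL-S, 783 in PCL-SE, 1725 in PCL-O and 1469 in PCL-E (-1.04 ± 0.08, adjusted p = 0.000409). The 3 enzymes therefore did not share a direction. Of 11 small leucine-rich proteoglycans, 6 were higher and 4 lower (without PCL-S 3 and 2, with all 8 libraries 2 and 1). Prelp averaged 97.8 ± 0.585 CPM with S7 and 30.2 ± 10.9 without it (1.71 ± 0.20), and fibromodulin, Fmod, 18.4 ± 0.345 CPM with S7 and 31.2 ± 1.53 without it (-0.75 ± 0.07). Of 27 matrix proteases and inhibitors, 9 were higher and 8 lower (without PCL-S 6 and 5, without PCL-SE 6 and 5, with all 8 libraries 5 and 5). Timp4 and Adamts8 were the extremes, and Adamts15 (-1.43), Timp3 (-1.30) and Adamts12 (-1.26) were lower too.

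The losses with the most CPM were in contractile, matrix and secreted signalling genes. Thbs1, thrombospondin, which activates latent TGF-beta, had 5675 CPM in PCL-S, 5522 in PCL-SE, 11914 in PCL-O and 10953 in PCL-E (-1.02 ± 0.06, adjusted p = 0.000159). Acta2, smooth muscle actin, had 6047 CPM in PCL-S, 6082 in PCL-SE, 9379 in PCL-O and 9077 in PCL-E (-0.59 ± 0.04, adjusted p = 0.00027). Penk, the enkephalin precursor, had 2201 CPM in PCL-S, 2184 in PCL-SE, 6815 in PCL-O and 5089 in PCL-E (-1.43 ± 0.13, adjusted p = 0.000655). All were lower in both S7 arms than in either other arm. Cald1, caldesmon, averaged 3151 ± 114 CPM with S7 and 6301 ± 596 without it (-0.99 ± 0.07), and Ctgf, a matricellular protein and classic YAP target, 4697 ± 46.1 CPM with S7 and 7548 ± 290.0 without it (-0.67 ± 0.05).

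The smooth muscle list as a whole was mixed. Of 20 genes tested, 6 were higher and 8 lower (with all 8 libraries 4 and 5). Against Acta2 and Cald1, the enteric actin Actg2 averaged 301 ± 21.4 CPM with S7 and 133 ± 22.4 without it (1.18 ± 0.11) and Synpo2, an actin-bundling protein, 30.8 ± 2.10 CPM with S7 and 9.78 ± 2.07 without it (1.67 ± 0.14). Actg2 was not called in the fit of all 8 libraries (adjusted p = 0.0874). Targets and parts of the YAP and TAZ pathway were lower more often: 12 of 21 were lower and 3 higher (without PCL-SE 2 and 7, with all 8 libraries 2 and 4), with a median of -0.31. F3, tissue factor, averaged 230.4 ± 11.3 CPM with S7 and 431 ± 87.8 without it (-0.90 ± 0.13). Amotl2, an inhibitor of YAP that is also its target, averaged 381 ± 8.78 CPM with S7 and 661 ± 19.0 without it (-0.78 ± 0.05), and the kinase Lats2 228 ± 4.28 CPM with S7 and 364 ± 11.3 without it (-0.66 ± 0.05). These 3 steps were under 2-fold. Yap1 (-0.19) and Wwtr1, the gene of TAZ (-0.31), were themselves called lower, but not without PCL-S (adjusted p = 0.0737 and 0.0548), without PCL-SE (0.271 and 0.074) or with all 8 libraries (0.178 and 0.0526). Nt5e went furthest the other way.

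Genes of cell division were higher, by small and even steps. Of 29 genes of G2 and mitosis tested, all 29 were called higher, with a median log2 fold change of 0.67 and 0 at 2-fold or more. Mki67, the proliferation antigen, had 175 CPM in PCL-S, 175 in PCL-SE, 87.0 in PCL-O and 104 in PCL-E (0.89 ± 0.08, adjusted p = 0.00056). Top2a, which untangles chromosomes, had 145 CPM in PCL-S, 141 in PCL-SE, 82.8 in PCL-O and 95.3 in PCL-E (0.70 ± 0.07, adjusted p = 0.000835). Ube2c, which tags cyclins for destruction, had 20.8 CPM in PCL-S, 24.6 in PCL-SE, 11.3 in PCL-O and 12.9 in PCL-E (0.91 ± 0.11, adjusted p = 0.0015). For all of them both S7 arms lay above both others, and PCL-E lay slightly above PCL-O. Cenpf, a kinetochore protein, averaged 104 ± 1.08 CPM with S7 and 56.8 ± 5.97 without it (SD, n = 2; 0.89 ± 0.07), and cyclin A2, Ccna2, had a log2 fold change of 0.81 ± 0.07. Cdk1, the mitotic kinase, averaged 55.5 ± 0.771 CPM with S7 and 39.7 ± 2.89 without it (0.49 ± 0.06). The number called was 27 without PCL-S, 26 without PCL-SE and 28 with all 8 libraries.

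Genes of the G1 to S transition and DNA synthesis followed in part, with 21 of 34 higher and 0 lower (without PCL-SE 9 and 0), with a median of 0.50. E2f8, a repressor of the cycle, averaged 6.39 ± 0.109 CPM with S7 and 3.09 ± 0.0527 without it (1.06 ± 0.15), and Tk1, thymidine kinase, 55.6 ± 1.23 CPM with S7 and 33.8 ± 5.67 without it (0.73 ± 0.10). Inhibitors and cyclins outside these lists were split, with 7 of 15 higher and 4 lower (with all 8 libraries 3 and 3). The inhibitor p27, Cdkn1b, averaged 47.3 ± 1.71 CPM with S7 and 27.2 ± 4.45 without it (0.81 ± 0.10) and Rb1, the retinoblastoma protein, 22.7 ± 0.198 CPM with S7 and 40.4 ± 0.581 without it (-0.82 ± 0.06).

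Many mitotic genes share a promoter layout, a CHR element (TTTGAA) near the start that is bound by the DREAM complex, with CCAAT boxes bound by NF-Y before it. The letters TTTGAA and CCAAT were searched on both strands in the same mouse windows. Neither contains the other, though adjoining matches can share an end base. Of 24 mitotic genes matched, 9 held TTTGAA (37.5%), against 12.7% of tested genes matched and 18.3% of all promoters. CCAAT was found in 18 of the 24 (75.0%), against 40.6% and 37.5%, and both in 8 of them (33.3%), against 4.75% and 6.45%. CCAAT was also frequent in other lists, at 17 of 26 genes of G1 and S phase (65.4%), 13 of 19 glucocorticoid-induced genes (68.4%) and 16 of 16 genes of cholesterol synthesis (100%). In the same order, TTTGAA was found in 4 (15.4%), 4 (21.1%) and 1 (6.25%) of these genes. Shown are the 120 bases before the start of 3 of the genes described above, from GRCm38.p6, with capitals for either motif on either strand. Cdk1 lies at chr10:69352913-69353032 on the minus strand, Top2a at chr11:99024190-99024309 on the minus strand and Ube2c at chr2:164769809-164769928 on the plus strand.
Cdk1: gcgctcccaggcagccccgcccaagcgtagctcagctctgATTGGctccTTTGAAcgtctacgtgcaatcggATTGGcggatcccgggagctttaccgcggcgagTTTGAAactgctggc
Top2a: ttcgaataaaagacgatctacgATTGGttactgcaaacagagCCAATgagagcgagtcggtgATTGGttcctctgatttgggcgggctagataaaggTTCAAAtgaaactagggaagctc
Ube2c: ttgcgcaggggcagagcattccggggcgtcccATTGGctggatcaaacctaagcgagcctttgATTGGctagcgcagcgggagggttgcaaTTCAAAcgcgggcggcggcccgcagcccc
In each of the 3 a TTTGAA, or its reverse TTCAAA, lies closer to the start than the CCAAT boxes. The order was read in 7 mitotic genes with both motifs within these 120 bases, which may not be all such genes. It was the same in 5 of the 7, whereas in Cdc20 and Ect2 a CCAAT is the nearest to the start. Whether these letters bear on the rise was not tested.

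Genes of sterol synthesis, ribosomes and glycolysis were mostly higher in the same arms. Of 23 genes of cholesterol synthesis and uptake, 18 were higher and 0 lower (without PCL-S 11 and 0, without PCL-SE 10 and 0, with all 8 libraries 9 and 0), with a median of 0.48. Dhcr7, which makes cholesterol from its direct precursor, had 31.4 CPM in PCL-S, 30.5 in PCL-SE, 16.2 in PCL-O and 18.8 in PCL-E (0.84 ± 0.08, adjusted p = 0.000825). Tm7sf2, a sterol reductase, averaged 16.0 ± 0.702 CPM with S7 and 8.36 ± 1.91 without it (SD, n = 2; 0.95 ± 0.15). Both S7 arms lay above both other arms in each gene. Ribosomal protein genes were higher in 35 of 38 and lower in 0 (without PCL-S 22 and 0, without PCL-SE 22 and 0, with all 8 libraries 13 and 0), with a median of 0.39. Many have near-identical copies, between which counts can be split, so single members are uncertain.

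Of 22 glycolysis genes 15 were higher and 3 lower (without PCL-S 8 and 1, without PCL-SE 8 and 2, with all 8 libraries 7 and 1), with a median of 0.29. The insulin-sensitive transporter Slc2a4 averaged 6.52 ± 0.958 CPM with S7 and 2.64 ± 0.215 without it (1.32 ± 0.18), while Pfkfb3, the regulator of phosphofructokinase, averaged 34.2 ± 2.85 CPM with S7 and 62.9 ± 9.99 without it (-0.87 ± 0.12). Among oxidative phosphorylation genes 19.4% were called, fewer than the 31.9% of all features tested. Oxidative phosphorylation genes had 5 of 31 higher and 1 lower (without PCL-S 0 and 0, without PCL-SE 0 and 1, without PCL-O 3 and 1, with all 8 libraries 0 and 0). Genes of the unfolded protein response and ATF4 had 12 of 24 higher and 3 lower (without PCL-SE 6 and 0, without PCL-O 12 and 5, with all 8 libraries 6 and 0), among them the lipoprotein receptor Vldlr (0.75 ± 0.07). Of 19 heat shock genes 1 was higher and 6 lower (without PCL-S 0 and 3, without PCL-SE 0 and 3, without PCL-E 3 and 7, with all 8 libraries 0 and 2), 12 were not called and the median was 0.02. Hsph1, an exchange factor for Hsp70, averaged 121 ± 1.96 CPM with S7 and 292 ± 17.6 without it (-1.26 ± 0.06).

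**Figure D4:**
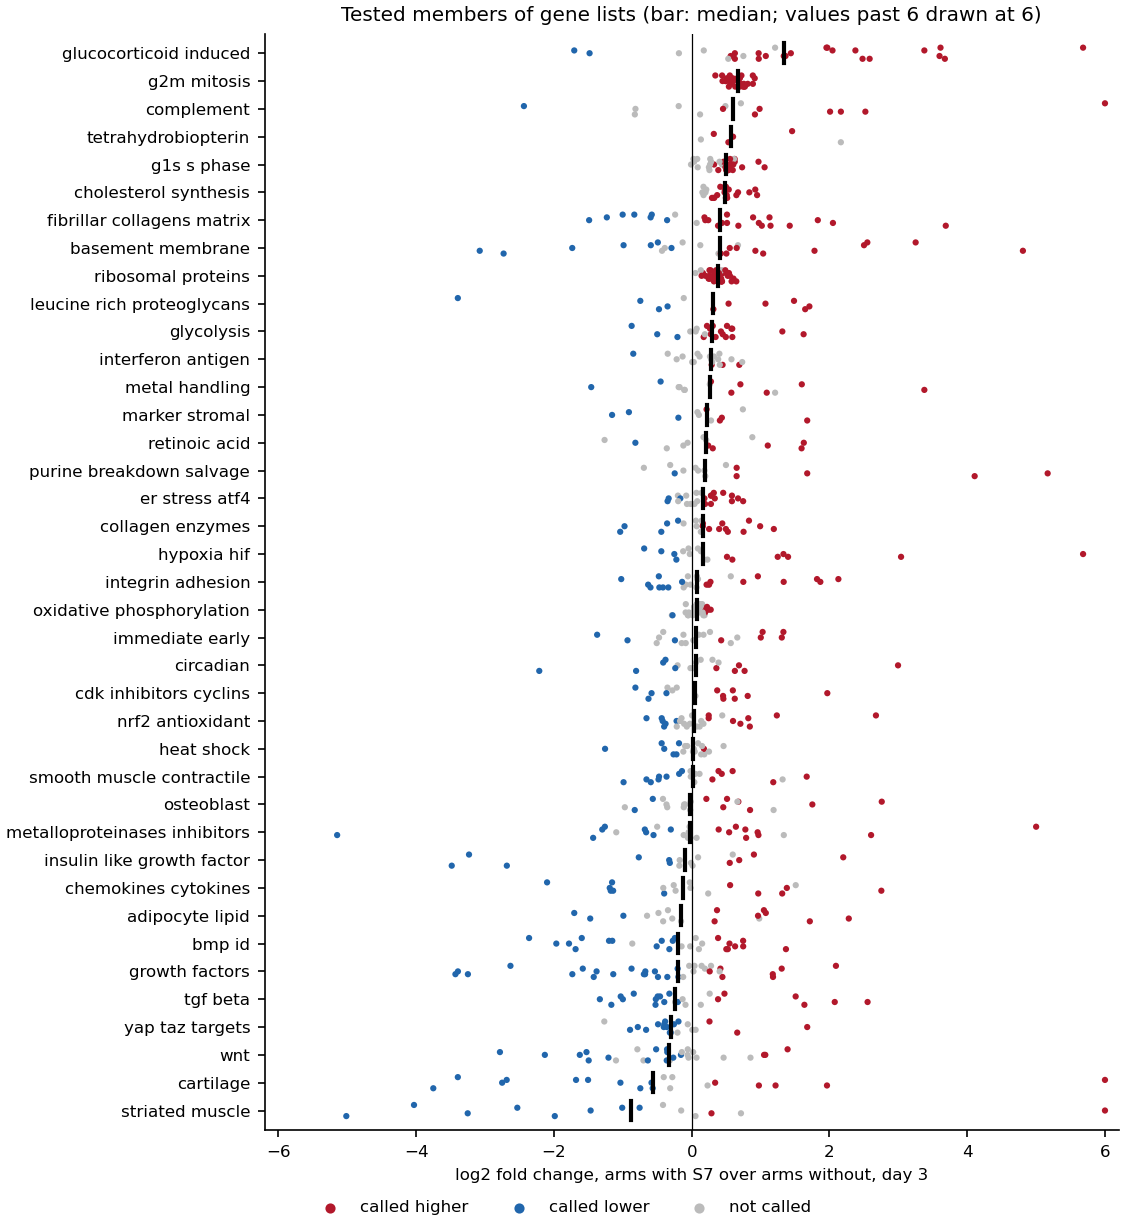
Each point is a tested gene of a list (rows, ordered by median), placed by its log2 fold change, arms with S7 over arms without, on day 3 (x axis); black bars are list medians and values past 6 are drawn at 6. Glucocorticoid-induced genes have the highest median (1.34) and striated muscle genes the lowest (-0.88), and all 29 mitotic genes are red. The lists were chosen with earlier results of these data known, so their order is a description.

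Markers of the lineages these cells can enter moved unevenly. In the bone list 7 of 20 tested genes were higher and 2 lower (without PCL-S 6 and 0, without PCL-SE 6 and 0, without PCL-O 7 and 1, without PCL-E 7 and 5, with all 8 libraries 3 and 0), with a median of -0.02. Runx2, the master factor of osteoblasts, had 31.6 CPM in PCL-S, 27.8 in PCL-SE, 14.9 in PCL-O and 18.4 in PCL-E (0.85 ± 0.11, adjusted p = 0.00244). Spp1, osteopontin, averaged 893 ± 32.5 CPM with S7 and 655 ± 24.3 without it (SD, n = 2; 0.46 ± 0.05), and Mepe, a mineral-binding protein of osteocytes, 5.55 ± 0.255 CPM with S7 and 1.66 ± 0.0958 without it (1.75 ± 0.18). Alpl, the alkaline phosphatase that frees phosphate for mineral, had 7.47 CPM in PCL-S, 7.25 in PCL-SE, 9.39 in PCL-O and 12.6 in PCL-E (-0.57 ± 0.15, adjusted p = 0.034). The call of Alpl was lost without PCL-S, PCL-SE or PCL-E and with all 8 libraries (adjusted p = 0.138, 0.164, 0.0815 and 0.296), and that of Spp1 with all 8 (0.262), whereas Runx2 was called under each alternative tried. Sp7, the next factor after Runx2, stayed under 0.4 CPM and Bglap, osteocalcin, under 0.2 CPM in every library, too low to be tested.

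Cartilage genes were lower more often, with 10 of 19 lower and 5 higher (without PCL-S 2 and 6, without PCL-SE 3 and 7, with all 8 libraries 2 and 7), with a median of -0.57. Col2a1, the defining collagen of cartilage, had 27.3 CPM in PCL-S, 37.8 in PCL-SE, 283 in PCL-O and 137 in PCL-E (-2.69 ± 0.35, adjusted p = 0.00218). Matn4, a matrilin, averaged 14.7 ± 0.429 CPM with S7 and 30.3 ± 1.30 without it (-1.04 ± 0.07). Sox9, the master factor of cartilage, averaged 18.0 ± 1.01 CPM with S7 and 26.8 ± 0.572 without it (-0.57 ± 0.07; adjusted p = 0.0845 with all 8 libraries). Acan, aggrecan, stood at 123 CPM in PCL-S, 124 in PCL-SE, 193 in PCL-O and 110 in PCL-E and was not called (-0.28). Its sign turned without PCL-O (0.20, called higher), and without PCL-E it was called lower (-0.64), so Acan has no stable direction here. Apart from Col11a1, the higher ones stayed below 5 CPM in every library. Among them Ucma, a cartilage matrix protein, had 27 and 24 counts in the S7 arms and 0 in the others. That is at least 7.92-fold above a floor of 3 counts per library. Summed over the list, CPM were 4498 in PCL-S, 4287 in PCL-SE, 4123 in PCL-O and 3753 in PCL-E. The summed level was therefore not lower with S7, although more genes were lower than higher.

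Fat cell genes had 7 of 17 higher and 3 lower (without PCL-SE 6 and 1, with all 8 libraries 4 and 2). Scd, the stearoyl-CoA desaturase, had 18.4 CPM in PCL-S, 20.3 in PCL-SE, 2.90 in PCL-O and 5.13 in PCL-E (2.28 ± 0.22, adjusted p = 0.000792). Pparg, the master factor of adipocytes, was below 4 CPM with S7 and near 1 CPM without it (1.71), and it was not called in the fit of all 8 libraries (adjusted p = 0.085). Lpl, lipoprotein lipase, averaged 8.12 ± 0.185 CPM with S7 and 22.7 ± 8.79 without it (-1.47 ± 0.26) and was not called without PCL-S or PCL-SE (adjusted p = 0.0552 and 0.0564). Striated muscle genes had 8 of 14 lower and 2 higher (without PCL-S 1 and 6, without PCL-SE 1 and 6, without PCL-E 4 and 9, with all 8 libraries 1 and 5), with a median of -0.88. Beside Myh2 and Myh3, Tnnc1, slow troponin C, averaged 4.99 ± 0.331 CPM with S7 and 29.0 ± 8.24 without it (-2.53 ± 0.21) and skeletal actin, Acta1, 69.8 ± 0.0201 CPM with S7 and 141 ± 23.0 without it (-1.01 ± 0.11; adjusted p = 0.0588 with all 8 libraries).

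Secreted signals and their receptors were lower more often than higher. Of 33 growth factor genes 18 were lower and 7 higher (without PCL-S 0 and 13, without PCL-SE 2 and 11, with all 8 libraries 1 and 12), with a median of -0.20. Nrg1, neuregulin, had 21.3 CPM in PCL-S, 20.5 in PCL-SE, 74.2 in PCL-O and 66.0 in PCL-E (-1.73 ± 0.08, adjusted p = 0.000135). Hbegf, a ligand of the EGF receptor, had 87.1 CPM in PCL-S, 104 in PCL-SE, 339 in PCL-O and 235 in PCL-E (-1.58 ± 0.18, adjusted p = 0.00129). Fgf10, a mesenchymal signal to epithelia, averaged 46.7 ± 3.16 CPM with S7 and 126 ± 10.9 without it (SD, n = 2; -1.42 ± 0.08), and its family's receptor Fgfr1 20.5 ± 0.0746 CPM with S7 and 53.8 ± 10.1 without it (-1.38 ± 0.13). These genes stood 2-fold to 4-fold below the arms without S7. Of 16 genes of the insulin-like growth factor system 4 were higher and 6 lower (without PCL-S 2 and 5, with all 8 libraries 2 and 3). Igfbp3 fell with Igf1 and Igfbp2 and averaged 1.58 ± 0.114 CPM with S7 and 10.3 ± 1.71 without it (-2.68 ± 0.19), while Igfbp6, which prefers IGF-II, was at 15.9 ± 1.60 CPM with S7 and 3.50 ± 0.395 without it (2.20 ± 0.14).

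In the BMP pathway, which drives bone formation, 8 of 26 genes were higher and 12 lower (with all 8 libraries 3 and 7), with a median of -0.20. Bmp3, a member of the BMP family, averaged 81.9 ± 1.55 CPM with S7 and 322 ± 19.8 without it (-1.97 ± 0.06, adjusted p = 6.34e-05). The ligand Bmp4 averaged 32.7 ± 5.11 CPM with S7 and 75.6 ± 11.1 without it (-1.20 ± 0.14). Grem1, an extracellular blocker of BMPs, was lower as well, at 282 ± 13.8 CPM with S7 and 859 ± 135 without it (-1.60 ± 0.11). The receptor Bmpr1b averaged 4.90 ± 0.246 CPM with S7 and 17.0 ± 6.50 without it (-1.78 ± 0.27), and its partners Bmpr1a (-0.51) and Bmpr2 (-0.44) were lower by less. The direct targets went the other way: Id4, an inhibitor of helix-loop-helix factors, averaged 88.4 ± 1.22 CPM with S7 and 34.5 ± 1.28 without it (1.37 ± 0.05), and Id1 (0.55), Id2 (0.75) and Id3 (0.38) were called higher too. With all 8 libraries Bmpr2, Id1, Id2 and Id3 were not called (adjusted p = 0.183, 0.304, 0.321 and 0.165). The ligands Bmp6 (0.50) and Gdf6 (0.75) and the blocker Chrd (0.63) were also higher, so neither ligands nor blockers moved as a class; Bmp6 was not called without PCL-S, without PCL-SE or with all 8 libraries (adjusted p = 0.124, 0.099 and 0.223).

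For TGF-beta, 12 of 23 genes were lower and 6 higher (with all 8 libraries 4 and 5), with a median of -0.24. The ligand Tgfb3 had 1000.5 CPM in PCL-S, 1041 in PCL-SE, 2716 in PCL-O and 2469.6 in PCL-E (-1.33 ± 0.06, adjusted p = 0.000129), and Smad3, the signal carrier, averaged 40.2 ± 0.189 CPM with S7 and 82.7 ± 1.60 without it (-1.03 ± 0.05). On the other side, Lrrc32, which holds latent TGF-beta at the cell surface, had 42.6 CPM in PCL-S, 44.9 in PCL-SE, 5.48 in PCL-O and 9.54 in PCL-E (2.55 ± 0.21, adjusted p = 0.00044). The co-receptor Tgfbr3 (1.64) and the induced matrix protein Tgfbi (2.08) were higher too. In the Wnt pathway 13 of 28 genes were lower and 3 higher (without PCL-SE 2 and 8, with all 8 libraries 3 and 5), with a median of -0.34. Nkd2, a feedback inhibitor, averaged 50.4 ± 2.66 CPM with S7 and 157 ± 38.0 without it (-1.63 ± 0.16). Wnt5a, a noncanonical ligand, averaged 74.2 ± 1.61 CPM with S7 and 36.1 ± 8.91 without it (1.05 ± 0.14), and Rspo2, which boosts Wnt receptors, 7.26 ± 0.297 CPM with S7 and 2.79 ± 0.378 without it (1.39 ± 0.17).

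Immediate early genes had 5 of 20 higher and 3 lower (without PCL-S 6 and 1, without PCL-SE 3 and 3, without PCL-E 6 and 5, with all 8 libraries 4 and 1). Myc had 39.3 CPM in PCL-S, 44.2 in PCL-SE, 15.2 in PCL-O and 18.3 in PCL-E (1.33 ± 0.10, adjusted p = 0.00037), and Fosl1 averaged 30.0 ± 3.30 CPM with S7 and 12.2 ± 0.219 without it (1.31 ± 0.09). Of 13 retinoic acid genes 5 were higher and 1 lower (without PCL-S 3 and 0, without PCL-SE 4 and 0, without PCL-E 4 and 2, with all 8 libraries 4 and 0), led by the carrier Crabp2 (1.63 ± 0.18) and the retinal reductase Dhrs3 (1.59 ± 0.07). Of 17 clock genes 5 were higher and 5 lower (without PCL-S 3 and 3, without PCL-SE 2 and 3, with all 8 libraries 2 and 3), and the repressor Bhlhe41 averaged 3.53 ± 0.180 CPM with S7 and 16.5 ± 1.51 without it (-2.21 ± 0.13). Most retinoic acid genes were not called (7 of 13), and clock genes were called about evenly in both directions.

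Complement genes, part of innate defence and made by many stromal cells, were higher in 7 of 14 and lower in 1 (without PCL-O 8 and 2), with a median of 0.60. The starter protease C1s had 5.61 CPM in PCL-S, 5.73 in PCL-SE, 1.13 in PCL-O and 1.41 in PCL-E (2.17 ± 0.20, adjusted p = 0.000639). Masp1, the protease of the lectin branch, went the other way, with 33.5 CPM in PCL-S, 34.9 in PCL-SE, 208 in PCL-O and 164 in PCL-E (-2.44 ± 0.12, adjusted p = 0.000135). Chemokines and cytokines had 5 of 18 higher and 6 lower (without PCL-S 5 and 3, without PCL-SE 5 and 3, with all 8 libraries 3 and 4). The monocyte attractant Ccl7 averaged 6.87 ± 0.706 CPM with S7 and 1.03 ± 0.180 without it (2.75 ± 0.21; adjusted p = 0.0879 in the fit of all 8 libraries), and Csf1, which keeps macrophages alive, 212 ± 0.343 CPM with S7 and 86.0 ± 17.4 without it (1.31 ± 0.12). Lif, a cytokine of the interleukin-6 family, averaged 1.67 ± 0.0861 CPM with S7 and 7.21 ± 2.30 without it (-2.10 ± 0.27), and Ptgs2, the inducible cyclooxygenase, 69.9 ± 15.5 CPM with S7 and 159 ± 18.9 without it (-1.18 ± 0.15). Interferon and antigen genes had 3 of 20 higher and 1 lower (without PCL-S 0 and 1, without PCL-SE 0 and 1, without PCL-E 7 and 1, with all 8 libraries 1 and 1), and the lower one was B2m (-0.85 ± 0.06), the light chain of class I molecules.

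Hypoxia genes had 7 of 18 higher and 4 lower (without PCL-S 6 and 2, without PCL-SE 6 and 2, with all 8 libraries 6 and 1). Epas1, the HIF-2 alpha subunit, had 469 CPM in PCL-S, 466 in PCL-SE, 31.1 in PCL-O and 83.9 in PCL-E (3.04 ± 0.40, adjusted p = 0.00227), so PCL-E stood above PCL-O but far below both S7 arms. Adm, adrenomedullin, averaged 46.7 ± 4.49 CPM with S7 and 17.8 ± 4.84 without it (SD, n = 2; 1.40 ± 0.17), and Ndrg1 21.0 ± 0.0287 CPM with S7 and 8.41 ± 0.400 without it (1.33 ± 0.09). Antioxidant genes were mixed, with 8 of 26 higher and 6 lower (without PCL-S 5 and 4, without PCL-SE 5 and 4, with all 8 libraries 3 and 1). Gpx3, the secreted glutathione peroxidase, averaged 79.8 ± 2.52 CPM with S7 and 12.6 ± 4.34 without it (2.67 ± 0.19), while Hmox1, haem oxygenase, averaged 141 ± 11.9 CPM with S7 and 223 ± 31.2 without it (-0.66 ± 0.11). Metal-handling genes had 6 of 14 higher and 2 lower, with ceruloplasmin, Cp, at 36.5 ± 1.41 CPM with S7 and 12.1 ± 2.06 without it (1.60 ± 0.11). Of 27 integrin and adhesion genes 9 were higher and 8 lower (without PCL-S 6 and 5, with all 8 libraries 5 and 3). Itga10, a collagen receptor of cartilage, averaged 5.91 ± 0.0736 CPM with S7 and 1.36 ± 0.00519 without it (2.13 ± 0.18), and Itga5, the fibronectin receptor chain, 336 ± 8.65 CPM with S7 and 174 ± 4.57 without it (0.96 ± 0.05). Of 8 reference genes 1 was higher and 3 lower (without PCL-S 1 and 1, without PCL-SE 1 and 1, with all 8 libraries 0 and 1), 0 of them by 2-fold, with Actb (-0.22), Ppia (-0.20, uncertain because of copies) and B2m (-0.85) the lower ones and Rplp0 (0.35) the higher. Gapdh averaged 766 ± 8.25 CPM with S7 and 734 ± 17.8 without it (0.07, not called, uncertain because of its copies).

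By day 7 most of the falls, but fewer of the rises, were still present. The S7 effect on day 7 was read from a fit of all 8 libraries, with the difference between days as an interaction, for which 28.7% of 15942 features were called (13.2% positive, 15.5% negative). Of the 276 members that were 2-fold higher on day 3, 194 had a fold change above 0 on day 7, 118 were called at 2-fold or more, and 43 were called lower. Of the 285 that were 2-fold lower, 264 stayed below 0, 208 were called lower at 2-fold or more, and 9 were called higher. The difference between days was called negative for 117 of the 276 and positive for 14, and positive for 46 of the 285 and negative for 78. These members were picked by their day 3 fold change, which enters the difference, so the counts are a description.

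Fkbp5, Gda, Xdh and Epas1 were high with S7 again: their day 7 log2 fold changes were 4.18, 4.16, 4.49 and 2.86, and the difference between days was not called. Scg2 (-5.90), Adamts8 (-4.43) and Igfbp2 (-3.59) were low again, also with no called difference. Sgk1 and Zbtb16 went further, to 4.96 and 6.06 (differences 2.59 ± 0.25 and 2.44 ± 0.34 (SE), adjusted p = 0.00194 and 0.00446). Collagens other than Col7a1 (1.75) were no longer higher among the genes with the largest gains. Col6a1 had 876 CPM in PCL-S, 855 in PCL-SE, 1155 in PCL-O and 962 in PCL-E on day 7 (difference -2.57 ± 0.22, adjusted p = 0.00156), and Tnn had 26.4 CPM in PCL-S, 56.6 in PCL-SE, 47.7 in PCL-O and 71.6 in PCL-E (-4.52 ± 0.36, adjusted p = 0.00136). The median of the fibrillar matrix list was -1.55 on day 7, and the difference was called negative for 23 of its 26 genes. Mitotic genes did the same, with a day 7 median of -0.71 and 28 of 29 negative. The glucocorticoid list had a day 7 median of 1.53, with 7 positive and 6 negative differences. Scaling to library totals in place of TMM moved the median difference of all features by 0.24 and the positive share of called members to 72.8% in place of 49.9%, and the matrix count was then 23 of 26 and the mitotic count 27 of 29.

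**Figure D5:**
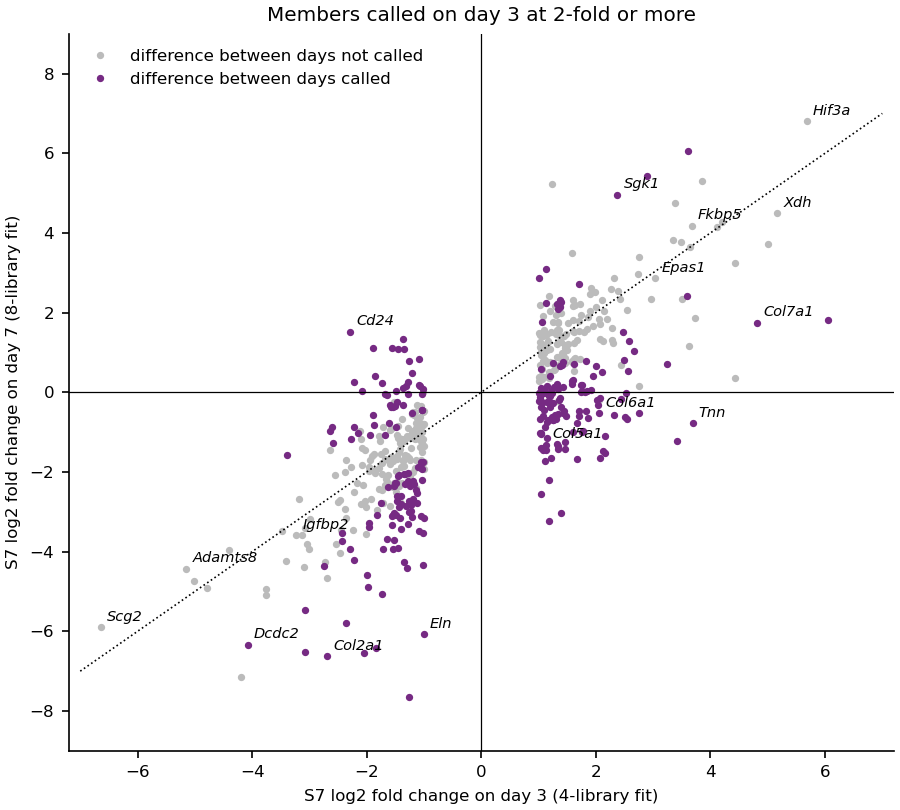
Log2 fold change of S7 on day 3 (x axis, 4-library fit) and on day 7 (y axis, 8-library fit) for the 561 members called at 2-fold or more on day 3; the dotted line marks equal values and purple points a called difference between days. Falls on day 3 (left) mostly stay below 0 on day 7, while rises (right) spread across 0; Myh3 and 1 other member lie outside the frame.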

How the data were processed

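The values are raw counts per gene in 1 table with 1 column per arm and day, as deposited by the authors; the deposited FPKM columns were not used in any test. Per the submitters' processing notes the build was mm10, whereas the IDs are rat; aligner and counter: not given in the sources used here. Per the labels' protocols RNA was taken with TRIzol and made into libraries with a SMARTER mRNA kit.

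CPM are counts over the library total. Fold changes and p-values come from edgeR 4.0.16 (TMM, filterByExpr, quasi-likelihood F-test, Benjamini-Hochberg) in R 4.3.3, and the SE is the fold change over the root of F. The day 3 fit used 4 libraries, with 2 residual degrees of freedom, and the between-day fit all 8, with E7 as a term. DESeq2 1.42.0 and other scalings, filters and left-out libraries were alternatives.

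Members and gene lists were chosen with earlier results of these data known. Named are the 15 largest rises and falls that do not overlap, the 8 largest gains and losses in CPM, up to 4 called members per list with a few markers beside them, the 5 largest differences between days each way, and the genes at the CPM minimum. Further genes described under a list, such as Id1 to Id3, Bmpr1a, Bmpr2, Bmp6, Gdf6, Chrd, Sox9, Acan, Sgk1, Glul and Errfi1, were chosen after their values were seen. The 4823 unnamed features stayed in the fits, and 10 lines of the table were left out. Some genes that the naming rule gives are not reported here.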

Additional observations from a re-analysis of the deposited data

Results flagged for a closer look

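The S7 effect differed between day 7 and day 3 for 28 of the genes named for the size of a change (edgeR interaction, adjusted p under 0.05). Values are the log2 difference, day 7 minus day 3.

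Collagens and their partners had negative differences: Col12a1 -3.20, Col7a1 -3.10, Col1a1 -2.76, Col1a2 -2.69, Col6a1 -2.57, Col4a1 -2.45, Col5a1 -2.44, Col6a2 -2.30 and Fn1 -2.01. Tnn (-4.52), Hs3st1 (-4.30) and Eln (-5.07) moved the same way. Eln had 5.80 CPM in PCL-S, 16.5 in PCL-SE, 1011 in PCL-O and 305 in PCL-E on day 7. Contractile, signalling and other genes that were lower on day 3 were lower still on day 7: Postn -1.77, Acta2 -1.60, Cald1 -1.22, Thbs1 -0.75, Tgfb3 -0.72 and Dcdc2 -2.25.

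The largest negative called differences were those of Dr1 (-8.93), Myh3 (-8.17), the adhesion protein Bcam (-6.42), Eln and Flt1 (-4.69). Another feature carries the name of Dr1, which is uncertain. The largest positive ones were Cd24, a surface glycoprotein (3.86), Gdf15, a stress cytokine (3.38), Hmox1 (3.30), Tmem35a (3.18) and Nxph3, a neurexin ligand (3.00). Both S7 arms of day 7 had 0 CPM of Myh3 and Bcam, so the size of these 2 differences is uncertain. Bcam was low in the other arms of day 7 too (PCL-O 1.09 CPM, PCL-E 0.335). Dr1 varied within a side on day 3 (PCL-O 0.261 CPM, PCL-E 26.5). Gdf15 had 49.2 CPM in PCL-S, 37.2 in PCL-SE, 4.19 in PCL-O and 8.07 in PCL-E on day 7, and Hmox1 2907 CPM in PCL-S, 2767 in PCL-SE, 182 in PCL-O and 687 in PCL-E. Kif1a, lower on day 3, had a positive difference (1.80).

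Some of these calls were lost when 1 library was left out (adjusted p in brackets). For Myh3 this held without PCL-SE (0.0671), PCL-O (0.0955) or PCL-E (0.08) of day 3 and without PCL-S (0.152) or PCL-SE (0.0815) of day 7, and also without the E7 term (0.064). Bcam lost its call without PCL-SE (0.086), PCL-O (0.103) or PCL-E (0.0853) of day 3 and without PCL-S (0.116) or PCL-SE (0.093) of day 7. Dr1 lost its call without PCL-S (0.0666) or PCL-SE (0.0722) of day 3 and without PCL-S (0.123) or PCL-SE (0.0988) of day 7. Tgfb3 did so when each library of day 3 was left out in turn (0.0777 to 0.134), without PCL-SE of day 7 (0.0807) and with library totals in place of TMM (0.103). For Hmox1 it was PCL-S (0.059), PCL-SE (0.0638) or PCL-O (0.0545) of day 3 and PCL-S of day 7 (0.0544), and for Kif1a PCL-S (0.0618), PCL-O (0.0685) or PCL-E (0.0571) of day 3 and PCL-S of day 7 (0.0637). For Dcdc2 it was PCL-SE (0.0811) or PCL-O (0.0775) of day 3 and PCL-SE of day 7 (0.0622). Eln lost its call without PCL-SE (0.0565) or PCL-O (0.0674) of day 3, Thbs1 without PCL-SE of day 3 (0.058), and Cd24 without PCL-S (0.05) or PCL-SE (0.0598) of day 3 or PCL-SE of day 7 (0.0502). The cause of these differences was not tested.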

How the results depend on the processing

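The columns carry no replicate numbers to pair libraries by. An E7 term sets PCL-S beside PCL-O and PCL-SE beside PCL-E, and it gave 1850 higher and 1715 lower members.

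Counts of higher and lower members on day 3 were 2019 and 1864, and they were 956 and 841 with all 8 libraries, 276 and 285 at 2-fold or more, and 1022 to 2445 and 937 to 2157 when 1 library was left out. DESeq2 gave 1704 and 1611, library totals 1852 and 1923, and other scalings and minimums stayed within 1.5 times. Positive and negative differences between days were 1858 and 1864, and they were 3296 and 1232 with library totals in place of TMM and 501 to 2611 and 746 to 2493 with 1 library left out. Across 239 genes named or listed and 2389 values under alternatives, 1 changed direction, that of Acan without PCL-O (0.20, against -0.64 without PCL-E), and 162 values, in 65 genes, lost their call, most often with all 8 libraries (57), without PCL-S (39) and without PCL-SE (35). The cause was not tested. Differences between days lost their call in 38 of 330 values. Of 168 alternative list medians 40 moved by more than 1 SD of the PCL-S over PCL-O and PCL-SE over PCL-E medians. Those pair medians are themselves among the alternatives, with 14 and 15 of the 40, so the count is a description.

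With 1 library per arm, the comparison is limited by 2 libraries a side that also differ in E7. Depth limits genes with few counts, and how far it does so was not tested.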
